A study of Rattus norvegicus with 12 samples.

Results

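The transcripts of 9 genes that p53 is known to activate (Cdkn1a, Mdm2, Ccng1, Gadd45a, Sesn1, Zmat3, Phlda3, Btg2 and Plk2) were followed by bulk RNA-seq in INS-1E cells, a clonal β-cell line from a rat insulinoma. The 9 genes were chosen by symbol among the 34034 gene symbols in the count table, and each of the 9 was found and passed the filter on low counts. The study asks whether a mild and prolonged exposure to the inflammatory cytokine IL-1β alters the response of β-cells to a later cytotoxic cytokine challenge. Wild-type INS-1E cells were left untreated, preconditioned with 10 pg/ml IL-1β for 72 h with cytokine added afresh every 24 h (IL-1βlow), challenged for 16 h with 100 pg/ml IL-1β and 5 ng/ml IFN-γ (CYT), or preconditioned and then challenged after a change of medium (IL-1βlow + CYT). For the IL-1βlow cells, the time from the end of preconditioning to harvest is not given in the sources used here. Each of the 4 groups had 3 libraries, which the labels call biological replicates of the line.

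p53 is a transcription factor that is kept low in unstressed cells because its own target MDM2 marks it for degradation, and that accumulates after DNA damage and other stresses. It then binds a response element built from a pair of 10-base half-sites and switches on genes that stop the cell cycle, repair DNA, adjust metabolism or lead to apoptosis. Cytokine-exposed β-cells produce nitric oxide, which is known to damage DNA, and many p53 targets also have other activators, so the level of a target transcript is not a measure of p53 activity. p53 itself is controlled mainly as a protein, which RNA-seq does not measure.

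The libraries held 15812640 to 20246806 counts each, and the 9 genes had at least 223 counts in every library. Levels are given as CPM, read counts scaled to library size, after TMM normalization, which scales each library to a common reference, and 14324 genes were tested with edgeR's quasi-likelihood test. A gene is said to have risen or fallen where the adjusted p was under 0.01 and the log2 fold change exceeded 1 in size, or 0.6 for IL-1βlow against untreated cells. The 8 β-cell markers (Ins1, Ins2, Iapp, Pdx1, Mafa, Nkx6-1, Slc2a2 and Chga) were all detected. Their summed level was 42800 to 49700 CPM in untreated and 38200 to 44700 in IL-1βlow libraries. It was lower in both challenged groups, at 13900 to 14900 CPM in CYT and 19900 to 25500 in IL-1βlow + CYT libraries. Ins1 was the highest of the 8. Slc2a2 did not follow the sum after CYT: its CYT libraries (352 to 471 CPM) overlapped the untreated ones (394 to 492 CPM). Single markers also differed from the sum in IL-1βlow + CYT libraries. Mean Pdx1 was 263 CPM there and 266 in untreated libraries, and mean Iapp 2600 and 2830 CPM. Slc2a2 had a higher mean there (596 CPM, 434 in untreated), and Ins1, Ins2, Mafa, Nkx6-1 and Chga had lower means. The part of the β-cell markers in the results for the p53 targets was not tested. Of 4 α- and δ-cell markers, Gcg was the highest, and their sum ran from 24.2 CPM in a CYT library to 367 in an untreated library, with 3 of the 4 at 0 in every CYT library. The 5 macrophage and leukocyte markers included 1 or 2 at 0 in each group. Their sum ran from 1.07 to 1.72 CPM without treatment and from 0.859 to 1.05 after IL-1βlow. Both challenged groups had a higher sum, 2.33 to 3.59 CPM after CYT and 4.44 to 5.77 after IL-1βlow + CYT. The highest gene of the 5, Adgre1, had 1 count in the untreated libraries and 0 in the IL-1βlow ones. It had 14 to 36 counts in CYT and 37 to 58 in IL-1βlow + CYT libraries. The single markers did not all follow the sum. Mean Csf1r was lower after CYT (0.166 CPM) and higher after IL-1βlow + CYT (1.43) than without treatment (0.63). Mean Cd68 was 1.08 CPM after CYT, 0.799 after IL-1βlow + CYT and 0.705 without treatment. Ptprc had 0 counts in every library. The 4 fibroblast markers summed to 12.6 to 16.4 CPM in untreated, 13.5 to 16.3 in IL-1βlow, 6 to 7.21 in CYT and 9.5 to 11.9 in IL-1βlow + CYT libraries, with 1 at 0 in each group. The 4 endothelial markers, of which Vwf was the highest, summed to 3.32 to 6.81 CPM in the other groups and to 6.63 to 9.1 CPM in IL-1βlow + CYT libraries, with 1 or 2 at 0. The part of these markers in the results was not tested. In a bulk library, less RNA per cell cannot be told apart from fewer cells that carry it.

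The 5 promoters below are shown because 3 of these genes rose with CYT (Cdkn1a, Gadd45a and Phlda3), whereas Ccng1 and Sesn1 carry the p53 half-site and did not rise. Each is the 250 bases before the annotated start in RefSeq's GRCr8 build, read 5′ to 3′ on the gene's strand, with the half-site in capitals.
Cdkn1a, chr20:7150682-7150931 (+): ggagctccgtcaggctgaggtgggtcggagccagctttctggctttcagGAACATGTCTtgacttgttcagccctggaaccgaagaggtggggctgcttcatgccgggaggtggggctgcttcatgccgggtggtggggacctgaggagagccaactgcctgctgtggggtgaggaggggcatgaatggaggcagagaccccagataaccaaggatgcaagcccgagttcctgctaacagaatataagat
Gadd45a, chr4:97486800-97487049 (-): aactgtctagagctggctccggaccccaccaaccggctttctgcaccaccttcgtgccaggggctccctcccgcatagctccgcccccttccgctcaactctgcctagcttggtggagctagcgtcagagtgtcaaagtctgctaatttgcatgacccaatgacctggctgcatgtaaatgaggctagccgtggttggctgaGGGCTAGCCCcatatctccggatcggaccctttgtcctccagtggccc
Ccng1, chr10:25684877-25685126 (-): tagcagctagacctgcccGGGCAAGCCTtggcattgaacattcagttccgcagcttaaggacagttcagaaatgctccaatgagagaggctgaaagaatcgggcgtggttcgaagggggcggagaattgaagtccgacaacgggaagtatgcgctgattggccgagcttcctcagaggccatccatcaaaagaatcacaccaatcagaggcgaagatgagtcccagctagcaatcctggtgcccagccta
Sesn1, chr20:46948469-46948718 (+): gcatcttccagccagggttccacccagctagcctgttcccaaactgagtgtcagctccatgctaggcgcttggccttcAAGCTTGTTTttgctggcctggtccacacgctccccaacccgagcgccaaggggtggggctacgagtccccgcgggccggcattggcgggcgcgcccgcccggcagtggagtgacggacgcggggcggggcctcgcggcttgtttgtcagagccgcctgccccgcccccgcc
Phlda3, chr13:49744753-49745002 (+): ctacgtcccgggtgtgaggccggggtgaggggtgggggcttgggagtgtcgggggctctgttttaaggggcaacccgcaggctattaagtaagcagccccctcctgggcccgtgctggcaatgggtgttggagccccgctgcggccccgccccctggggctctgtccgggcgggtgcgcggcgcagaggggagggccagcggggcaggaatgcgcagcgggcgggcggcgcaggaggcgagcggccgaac
The promoters of 8 of the 9 genes were matched by symbol (Zmat3 was not), each as a window of 300 bases that runs 50 bases past the start. Of these 8, 4 held the p53 half-site, read on both strands, against 7.98% of 33469 promoters of the same length. It lay from base -201 to -192 of the start in Cdkn1a, -48 to -39 in Gadd45a, -232 to -223 in Ccng1 and -172 to -163 in Sesn1. No p53 half-site was matched in the windows of Phlda3, Mdm2, Btg2 and Plk2, and the NF-κB site, the element of the main IL-1β-activated factor, was matched in 0 of the 8 against 7.51% of all promoters. A match of letters is a description and does not show binding, and distal elements lie outside these windows.

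In CYT against untreated cells, 3 of the 9 targets rose (Gadd45a, Phlda3 and Cdkn1a) and 0 fell. Over all genes tested 21.6% passed both thresholds, 10% upward and 11.6% downward. Mdm2 and Zmat3 were higher and Sesn1 was lower with an adjusted p under 0.01 but under the fold minimum, which makes 6 of 9 past the p threshold against 49.7% of all genes. Ccng1, Btg2 and Plk2 passed neither. The median log2 fold change of the 9 was 0.47, and that of all genes was -0.04.

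**Figure D1:**
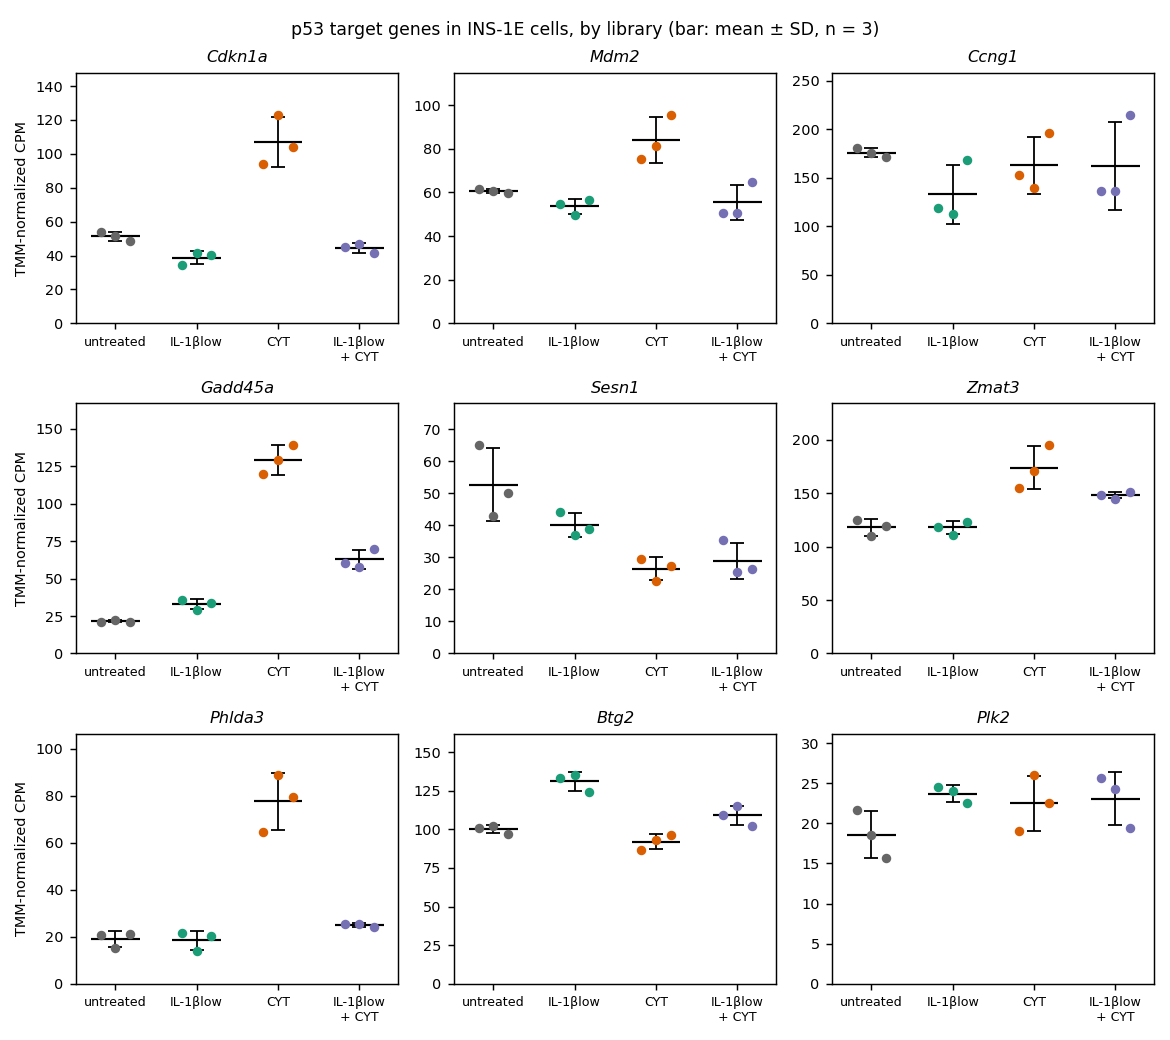
TMM-normalized CPM (y axis, from 0) of the 9 p53 target genes in each of the 12 libraries, by group (x axis), with the mean as a bar and the SD as the error bar (n = 3). Cdkn1a, Gadd45a and Phlda3 are highest in the 3 CYT libraries, and Ccng1 and Plk2 overlap between CYT and untreated cells.

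Gadd45a encodes a stress sensor that binds PCNA and kinases of the p38 and JNK pathways. It stood at 21.1, 22.3 and 21.2 CPM in the untreated libraries and at 35.5, 29 and 33.9 CPM in the IL-1βlow libraries. It reached 120, 129 and 139 CPM in the CYT libraries and 60.2, 58 and 69.8 CPM in the IL-1βlow + CYT libraries. The 4 groups did not overlap, in the order CYT, IL-1βlow + CYT, IL-1βlow, untreated. CYT raised Gadd45a 6.01-fold (log2 fold change 2.59 ± 0.11 SE, adjusted p = 1.1e-10), and it remained 2.91-fold above untreated cells in IL-1βlow + CYT (1.54 ± 0.10 SE, adjusted p = 5.6e-08). IL-1βlow + CYT cells had less Gadd45a than CYT cells (log2 fold change -1.04 ± 0.10 SE, adjusted p = 1.3e-06), a value of -0.99 and under the fold minimum without IL-1βlow + CYT replicate 2. A lncRNA, LOC100912188, overlaps Gadd45a in GRCr8 and had 8 to 27 counts per library, and whether the counting used strand is not given in the sources used here.

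Gadd45a was also the 1 gene of the 9 to pass after IL-1βlow alone, where 0.433% of all genes passed and 0.265% rose (log2 fold change 0.61 ± 0.10 SE, adjusted p = 0.0085). This call is at the edge of both thresholds: it was lost in 13 of 20 alternative analyses, with log2 fold changes of 0.55 to 0.69 and adjusted p-values of up to 0.08. It was lost on leaving out any one library but IL-1βlow + CYT replicate 3. All 3 IL-1βlow libraries lay above all 3 untreated libraries. At an unadjusted p under 0.05 in edgeR's quasi-likelihood test, 6 of the 9 genes passed after IL-1βlow alone, against 13.8% of all genes. Of these, Gadd45a, Btg2 and Plk2 were higher, and Cdkn1a, Ccng1 and Sesn1 were lower.

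Cdkn1a encodes p21, the inhibitor of cyclin-dependent kinases through which p53 arrests the cell cycle. Its levels were 54, 51.3 and 48.7 CPM in untreated, 34.4, 41.5 and 40.5 CPM in IL-1βlow, 94.3, 123 and 104 CPM in CYT, and 44.9, 47 and 41.6 CPM in IL-1βlow + CYT libraries. The CYT libraries were apart from the other 9, and both the IL-1βlow and the IL-1βlow + CYT libraries lay below every untreated one. Cdkn1a rose 2.08-fold with CYT (log2 fold change 1.06 ± 0.11 SE, adjusted p = 1e-06), close to the fold minimum, and without CYT replicate 2 the value was 0.95 and no longer passed. In IL-1βlow + CYT cells it was 0.416 times the CYT level (-1.26 ± 0.11 SE, adjusted p = 5.5e-07). Neither IL-1βlow + CYT (-0.21, 95% CI -0.44 to 0.02, adjusted p = 0.20) nor IL-1βlow alone (-0.41, 95% CI -0.64 to -0.17, adjusted p = 0.095) passed the test against untreated cells.

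Phlda3 encodes a small protein of a pleckstrin homology domain that competes with the kinase AKT for membrane lipids and so restrains survival signalling, and it is known to restrain the growth of islet cell tumours. It was at 20.6, 15 and 21.2 CPM in untreated and 21.5, 13.7 and 20.1 CPM in IL-1βlow libraries, which overlapped. CYT libraries had 64.7, 88.7 and 79.4 CPM, and IL-1βlow + CYT libraries 25.6, 25.3 and 24 CPM. The CYT group was again apart from the other 3. The rise with CYT was 4.09-fold (log2 fold change 2.03 ± 0.17 SE, adjusted p = 1.7e-07). IL-1βlow + CYT cells had 0.322 times the CYT level (-1.64 ± 0.17 SE, adjusted p = 2.9e-06), the largest difference of the 9 genes in that comparison, and their difference from untreated cells did not pass (0.40, 95% CI 0.03 to 0.76, adjusted p = 0.12). A pseudogene, Rpl11-ps12, overlaps Phlda3 in GRCr8.

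The feedback genes Mdm2 and Ccng1 act on p53 itself. Mdm2 encodes the ubiquitin ligase that removes p53, and it was at 61.6, 60.4 and 59.8 CPM in untreated, 54.6, 49.7 and 56.4 CPM in IL-1βlow, 75.1, 81.3 and 95.5 CPM in CYT, and 50.7, 50.6 and 64.8 CPM in IL-1βlow + CYT libraries. Its CYT libraries were above all others, but the log2 differences, 0.47 ± 0.11 SE from untreated (adjusted p = 0.0021) and -0.60 ± 0.11 SE between IL-1βlow + CYT and CYT (adjusted p = 0.00048), were under the fold minimum. No pair among the other 3 groups passed for Mdm2, with the IL-1βlow + CYT level -0.13 (95% CI -0.37 to 0.11) from untreated cells. Ccng1 encodes cyclin G1, which recruits a phosphatase to MDM2. It was at 181, 176 and 172 CPM in untreated, 119, 113 and 168 CPM in IL-1βlow, 153, 140 and 196 CPM in CYT, and 136, 136 and 215 CPM in IL-1βlow + CYT libraries. In each treated group replicate 3 was the highest, and the IL-1βlow + CYT libraries spanned the levels of all untreated ones. The log2 difference between CYT and untreated cells was -0.11 (95% CI -0.50 to 0.28, adjusted p = 0.62), and no comparison of Ccng1 passed.

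Sesn1 encodes sestrin 1, which restrains mTORC1 and limits oxidative damage, and its levels were lower, not higher, after the challenge. It was at 65, 42.8 and 50.2 CPM in untreated, 44.2, 36.9 and 38.9 CPM in IL-1βlow, 29.4, 22.7 and 27.4 CPM in CYT, and 35.4, 25.3 and 26.2 CPM in IL-1βlow + CYT libraries. Both challenged groups lay below all untreated libraries and overlapped each other. The log2 fold change was -0.99 ± 0.16 SE in CYT (adjusted p = 0.00012) and -0.87 ± 0.16 SE in IL-1βlow + CYT cells (adjusted p = 0.0013), both just under the fold minimum. Leaving out untreated replicate 2 took both past it, to -1.10 and -1.01. The CYT value was -1.03 without untreated replicate 3 or without CYT replicate 1, and the IL-1βlow + CYT value was -1.05 without IL-1βlow + CYT replicate 1. The difference between IL-1βlow + CYT and CYT cells was 0.12 (95% CI -0.23 to 0.48, adjusted p = 0.55).

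Zmat3 encodes an RNA-binding zinc finger protein that acts on splicing. Its libraries had 125, 110 and 119 CPM when untreated, 118, 111 and 123 CPM after IL-1βlow, 155, 171 and 195 CPM after CYT, and 148, 145 and 151 CPM after IL-1βlow + CYT. Zmat3 in CYT cells was above every library of the other groups, and in IL-1βlow + CYT cells above every unchallenged one. The CYT value was 0.55 ± 0.09 SE on the log2 scale (adjusted p = 8.8e-05), under the fold minimum, and the value in IL-1βlow + CYT cells was 0.32 (95% CI 0.13 to 0.51, adjusted p = 0.016).

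Btg2 and Plk2 passed both thresholds in no comparison. Btg2, an antiproliferative protein that recruits the deadenylase complex to mRNA, had 101, 102 and 97.2 CPM in untreated, 133, 135 and 124 CPM in IL-1βlow, 86.6, 93.3 and 96.2 CPM in CYT, and 109, 115 and 102 CPM in IL-1βlow + CYT libraries. Its highest group was IL-1βlow, with every library above all of the other groups, yet the difference from untreated cells did not pass (log2 fold change 0.38 ± 0.08 SE, adjusted p = 0.022). Plk2 encodes a stress-responsive polo-like kinase that acts on centriole duplication. It had 21.7, 18.5 and 15.7 CPM in untreated, 24.6, 24 and 22.6 CPM in IL-1βlow, 19.1, 26 and 22.5 CPM in CYT, and 25.7, 24.3 and 19.4 CPM in IL-1βlow + CYT libraries, and the CYT group overlapped the untreated one (log2 fold change 0.27, 95% CI -0.04 to 0.59, adjusted p = 0.12).

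**Figure D2:**
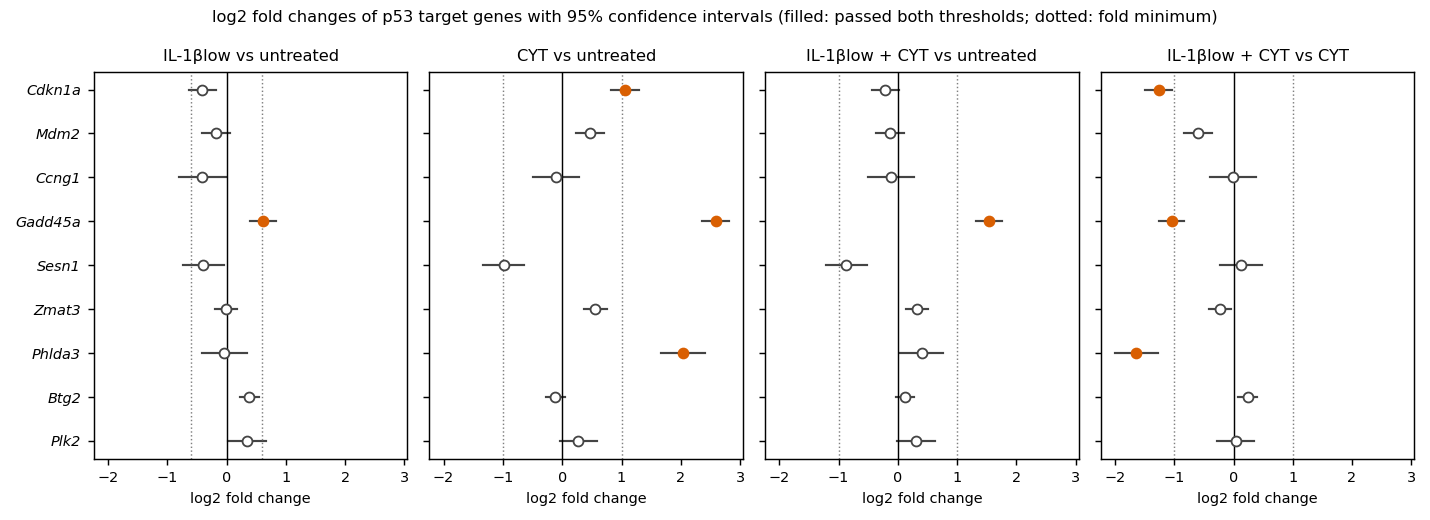
log2 fold change (x axis) of the 9 p53 target genes (y axis) in 4 comparisons, with 95% confidence intervals from the quasi-likelihood fit. Filled points passed both thresholds: 1 for IL-1βlow, 3 for CYT and 1 for IL-1βlow + CYT against untreated cells, and 3 for IL-1βlow + CYT against CYT, and dotted lines mark the fold minimum.

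In IL-1βlow + CYT against CYT cells, 3 of the 9 fell (Phlda3, Cdkn1a and Gadd45a) and 0 rose, where 12.5% of all genes passed, 6.54% upward and 5.92% downward. The median was -0.23 for the 9 genes and 0.02 for all genes. Against untreated cells, IL-1βlow + CYT raised 1 of the 9 (Gadd45a) and lowered 0, where 5.99% of all genes passed, 3.85% upward. Within preconditioned cells the challenge moved 0 of the 9 past both thresholds, where 3.88% of all genes passed. Gadd45a had an adjusted p of 1.2e-05 there with a log2 fold change of 0.93 ± 0.10 SE, and DESeq2 and the exact test of edgeR also gave 0 of the 9 past both thresholds. At an unadjusted p under 0.05, 5 of the 9 passed, against 23.6% of all genes. CYT against IL-1βlow cells had 3 of the 9 higher (Gadd45a, Phlda3 and Cdkn1a) and 0 lower, where 19.1% of all genes passed, 9.24% upward. These comparisons share libraries and are not independent of each other.

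The difference between the CYT response of preconditioned cells and that of unconditioned cells was tested as an interaction. It passed for Gadd45a (-1.65 ± 0.14 SE on the log2 scale, adjusted p = 2.9e-06) and Phlda3 (-1.60 ± 0.24 SE, adjusted p = 2e-04). Both genes differed less with CYT in preconditioned than in unconditioned cells. This makes 2 of the 9, where 10.7% of all genes passed, 5.2% downward. Cdkn1a had an interaction of -0.86 ± 0.15 SE (adjusted p = 0.00067), under the fold minimum. For the other 6 genes it ran from -0.42 (Mdm2) to 0.52 (Sesn1), and none had an adjusted p under 0.01.

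Among 15 tested genes that regulate p53, 0 rose and 1 fell with CYT, where 10% of all genes rose and 11.6% fell, and the median log2 fold change was 0.02 against -0.04 for all genes. The gene that fell was Atm, the kinase that activates p53 after DNA double-strand breaks. Atm was at 24.3, 24.1 and 25.5 CPM in untreated, 15.6, 16.4 and 21.7 CPM in IL-1βlow, 9.35, 7.4 and 10.1 CPM in CYT, and 12.9, 16.7 and 24.1 CPM in IL-1βlow + CYT libraries. All CYT libraries lay below all others (CYT against untreated, log2 fold change -1.46 ± 0.20 SE, adjusted p = 2.5e-05). Mdm4, the partner of MDM2 that masks p53, did not pass (-0.17, adjusted p = 0.61). In IL-1βlow + CYT against CYT cells 0 of the 15 passed both thresholds in edgeR's quasi-likelihood test and in DESeq2. In edgeR's exact test 1 did. Atm was higher there by a log2 fold change of 1, at the fold minimum. It passed in 6 of 20 alternative analyses, which include a rule with no fold minimum, with values from 0.73 to 1.16. In that comparison an adjusted p under 0.01 was reached by 4 of the 15, against 36.3% of all genes. An unadjusted p under 0.05 was reached by 8, against 56.7% of all genes. In the interaction 2 of the 15 passed upward and 0 downward, where 10.7% of all genes passed, and 1 of the 15 passed in DESeq2.

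Of 40 other genes known as p53 targets, 37 were tested. With CYT, 11 of the 37 rose and 1 fell, where 10% of all genes rose and 11.6% fell, and the median log2 fold change was 0.37 against -0.04 for all genes. The largest rises were Lif, a cytokine of the interleukin-6 family (5.06 ± 0.13 SE, adjusted p = 1.3e-12), Fas, a death receptor (3.48 ± 0.16 SE, adjusted p = 4.3e-10), Gdf15, a secreted stress factor (3.02 ± 0.20 SE, adjusted p = 1.6e-08), and Epha2, an ephrin receptor (2.89 ± 0.17 SE, adjusted p = 2.9e-09). Lif and Fas are also known to respond to inflammatory cytokines through other factors. The apoptosis genes Bbc3, Bax and Pidd1, the exonuclease gene Aen, and Cd82, Ninj1 and Dram1 rose as well. Of these, Pidd1 (mean 15.1 CPM in untreated and 31.1 in CYT libraries) and Dram1 (4.94 and 10.2 CPM) were close to the fold minimum. Rrm2b, a ribonucleotide reductase subunit, fell (-1.27 ± 0.21 SE, adjusted p = 1e-04).

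In IL-1βlow + CYT against CYT cells 7 of these 37 genes fell and 1 rose, where 5.92% of all genes fell and 6.54% rose, with a median of -0.37 against 0.02 for all genes. Without the genes that also stand on other lists, 5 of 32 fell and 0 rose, with a median of -0.36. Gdf15 fell the most (log2 fold change -2.64 ± 0.20 SE, adjusted p = 1.8e-07), from 15, 11.8 and 16.3 CPM in CYT to 2.01, 2.39 and 2.5 CPM in IL-1βlow + CYT libraries, close to its 2.18, 1.6 and 1.52 CPM in untreated libraries. The others that fell were Bbc3, Aen, Lif, Sesn2, Pidd1 and Plk3, and the gene that rose was Pcna, the replication clamp (1.03 ± 0.08 SE, adjusted p = 1.8e-07). Fas differed by -0.94 and Epha2 by -0.74, both under the fold minimum. After IL-1βlow alone 0 of the 37 passed in edgeR's quasi-likelihood test, DESeq2 or edgeR's exact test, and 5 had an unadjusted p under 0.05, as had 13.8% of all genes. In IL-1βlow + CYT against untreated cells 5 of the 37 rose, Lif, Fas, Epha2 and Cd82 among them, as did 3.85% of all genes. Lists of p53 targets differ between sources, and Sesn2, Plk3, Pcna, Ppm1d and Tp73 also stand on the other lists used here.

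**Figure D3:**
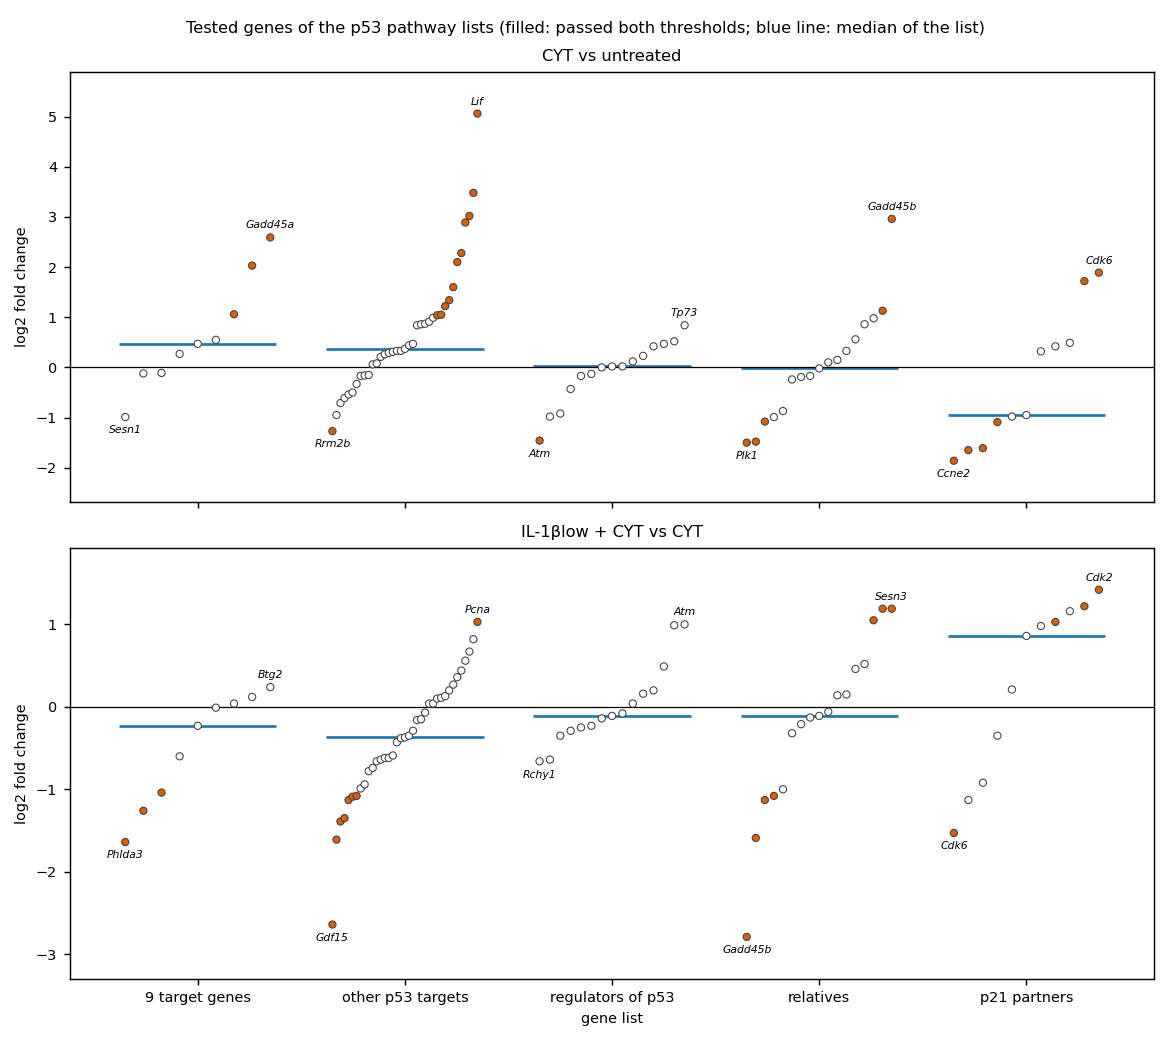
log2 fold change (y axis) of every tested gene on 5 lists (x axis), sorted within each list, for CYT against untreated cells (upper panel) and IL-1βlow + CYT against CYT cells (lower panel). Filled points passed both thresholds and the blue line is the median of the list, which for the 37 other p53 targets is 0.37 above and -0.37 below.

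Relatives of the 9 genes allow each to be set beside members of its own family, of which 17 of 18 were tested. With CYT 2 rose (Gadd45b and Phlda1) and 3 fell (Plk1, Plk5 and Plk4), so 5 of the 17 passed, where 21.6% of all genes did. In IL-1βlow + CYT against CYT cells 3 rose (Sesn3, Plk1 and Plk5) and 4 fell (Gadd45b, Phlda2, Sesn2 and Plk3), so 7 of the 17 passed, where 12.5% of all genes did. Their median log2 fold change was -0.02 in the first comparison, where that of all genes was -0.04, and -0.11 in the second, where that of all genes was 0.02.

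In the Gadd45 family, Gadd45b passed in the same comparisons with CYT cells as Gadd45a. It was at 7.39, 7.58 and 7.6 CPM in untreated, 4.82, 6.38 and 3.58 CPM in IL-1βlow, 36.6, 67.3 and 71.3 CPM in CYT, and 7.17, 8.3 and 9.75 CPM in IL-1βlow + CYT libraries. The log2 fold change was 2.96 ± 0.24 SE with CYT (adjusted p = 1.1e-07) and -2.79 ± 0.24 SE for IL-1βlow + CYT against CYT (adjusted p = 5.2e-07). Gadd45g overlapped between CYT (225, 261 and 252 CPM) and untreated libraries (211, 214 and 243 CPM) and was lower in IL-1βlow + CYT libraries (134, 126 and 110 CPM). That log2 difference from CYT was -1 ± 0.10 SE (adjusted p = 1.5e-06), just short of the fold minimum. It passed in 14 of 20 alternative analyses, which include a rule with no fold minimum, with values from -1.09 to -0.93.

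The other sestrins differed in direction. Sesn2, which ATF4 also activates, was at 168, 186 and 171 CPM in untreated, 297, 364 and 290 CPM in CYT, and 147, 161 and 126 CPM in IL-1βlow + CYT libraries. Its log2 differences were 0.86 ± 0.11 SE with CYT (adjusted p = 8.7e-06, under the fold minimum) and -1.13 ± 0.11 SE between IL-1βlow + CYT and CYT (adjusted p = 1.4e-06). Sesn3, a target of FOXO factors, ran the other way, at 146, 143 and 140 CPM in untreated, 84.3, 70.4 and 80.2 CPM in CYT, and 184, 157 and 193 CPM in IL-1βlow + CYT libraries. It was 1.19 ± 0.09 SE higher in IL-1βlow + CYT than in CYT cells (adjusted p = 2.8e-07).

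Phlda1 was at 35 to 42.7 CPM in untreated and 75.8 to 86.4 CPM in CYT libraries (log2 fold change 1.13 ± 0.10 SE, adjusted p = 4.5e-07), and its difference between IL-1βlow + CYT and CYT cells did not pass (-0.32 ± 0.10 SE, adjusted p = 0.019). Phlda2 was near the detection limit, at 0.368 to 1.75 CPM in all libraries. Plk1, the mitotic kinase, fell with CYT (-1.50 ± 0.15 SE, adjusted p = 1.1e-06) and was higher in IL-1βlow + CYT than in CYT cells (1.19 ± 0.15 SE, adjusted p = 2e-05). Plk5 passed in both comparisons too (-1.48 and 1.05), Plk4 fell with CYT (-1.08 ± 0.25 SE, adjusted p = 0.0016), and Plk3 was lower in IL-1βlow + CYT than in CYT cells (-1.08 ± 0.13 SE, adjusted p = 8.4e-06). The rise of Plk5 in IL-1βlow + CYT against CYT cells was under the fold minimum without CYT replicate 3 (0.84) and without IL-1βlow + CYT replicate 1 (0.89), as was the fall of Plk4 with CYT without CYT replicate 2 (-0.99). The remaining relatives, Cdkn1b, Ccng2, Zmat1, Zmat4, Btg1, Btg3 and Mdm4, passed in neither comparison, with log2 fold changes from -0.99 (Zmat1) to 0.56 (Ccng2) with CYT.

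**Figure D4:**
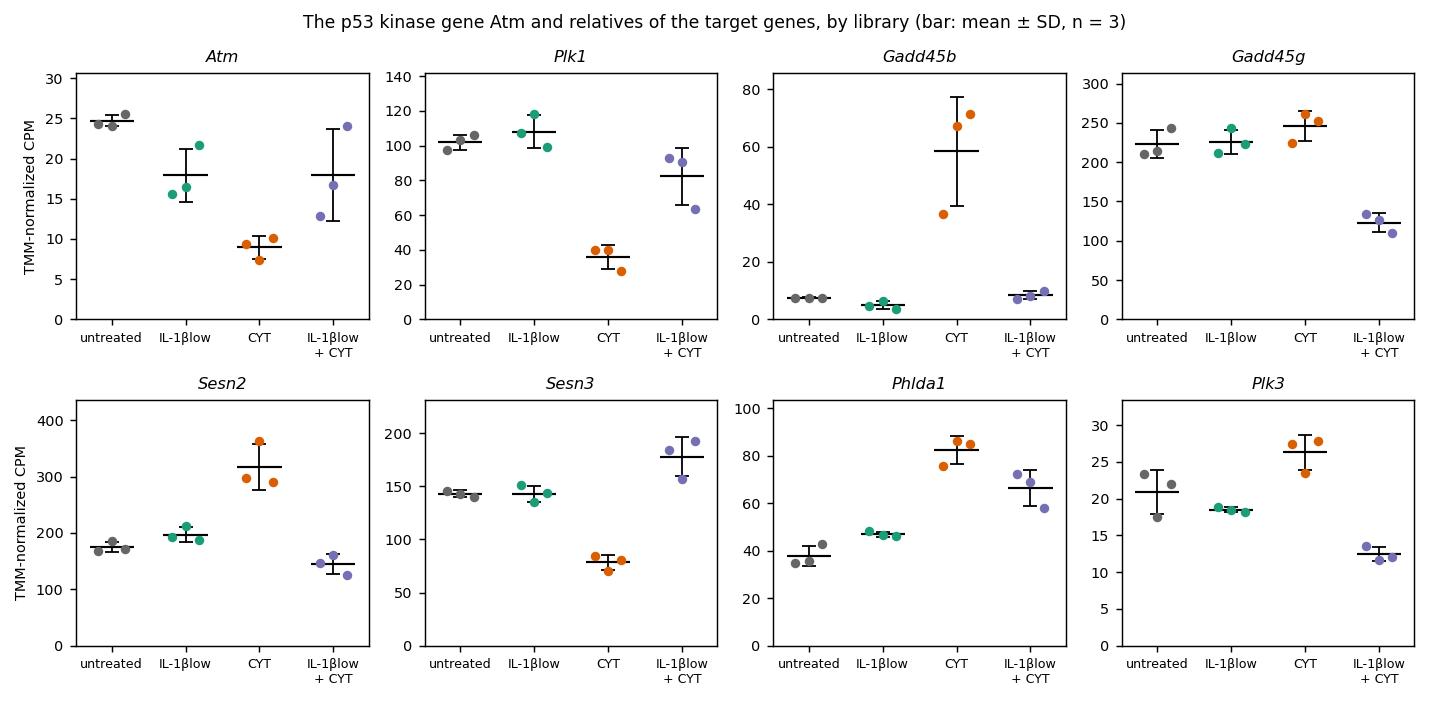
TMM-normalized CPM (y axis, from 0) of Atm and 7 relatives of the target genes in each library, by group (x axis), with mean and SD (n = 3). Gadd45b and Sesn2 are highest, and Atm, Plk1 and Sesn3 lowest, in the CYT libraries.

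The proteins that p21 binds were the last list, with all 11 tested. With CYT 2 rose and 4 fell, where 10% of all genes rose and 11.6% fell, and the median log2 fold change was -0.95 against -0.04 for all genes. Cdk2, the kinase that p21 inhibits at the start of S phase, was at 42.2, 39.7 and 40.9 CPM in untreated, 15.6, 11.3 and 12.1 CPM in CYT, and 34.9, 36.8 and 33.2 CPM in IL-1βlow + CYT libraries. It fell with CYT (-1.65 ± 0.12 SE, adjusted p = 3.4e-08) and was 1.42 ± 0.12 SE higher in IL-1βlow + CYT than in CYT cells (adjusted p = 5.1e-07). Its partner Ccne2 (-1.86 ± 0.33 SE, adjusted p = 0.00023), Ccna2 and Cdk1 also fell. Cdk6, a G1 kinase, rose with CYT (1.89 ± 0.19 SE, adjusted p = 1.3e-06) and was lower in IL-1βlow + CYT than in CYT cells (-1.53 ± 0.19 SE, adjusted p = 1.5e-05). Ccnd1 rose too, but from 0.172 to 0.651 CPM in untreated to 1.25 to 1.69 CPM in CYT libraries, near the filter on low counts. Its call was lost without untreated replicate 1 (log2 fold change 1.33, adjusted p = 0.014) and without CYT replicate 2 (1.63, adjusted p = 0.011). In IL-1βlow + CYT against CYT cells 3 of the 11 rose (Cdk2, Ccna2 and Pcna) and 1 fell (Cdk6). Of all genes, 6.54% rose and 5.92% fell, and the median was 0.86 against 0.02 for all genes. DESeq2 passed 5 of the 11 there and edgeR's exact test 6. Ccne2 (1.16) and Ccnd1 (-1.13) exceeded the fold minimum without an adjusted p under 0.01. Over alternative analyses, which include a rule with no fold minimum, Ccne2 passed in 9 of 20 and Ccnd1 in 3 of 19. Annotated genes overlap Atm, Fas, Gdf15, Sesn2, Sesn3, Plk1, Plk3, Mdm4, Zmat1, Zmat4, Ccne2, Cdk2 and Cdk6 in GRCr8, so part of their counts may belong to a neighbour.

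Over the 12 libraries the range of a gene on the log2 scale went from 0.64 (Btg2) to 2.72 (Gadd45a) and 2.69 (Phlda3). The mean of the 9, each centred on its own mean over the libraries, was 0.32, 0.46 and 0.54 in the CYT libraries and -0.31 to -0.02 in the other 9. Genes with a profile most like this mean, by the root mean square difference in centred log2 CPM over the 12 libraries, were Lsm14b (0.043), Cpne1 (0.064) and RGD1565685 (0.067). The nearest gene to Cdkn1a was Cry1 (0.131), to Mdm2 Smad2 (0.07), to Ccng1 Togaram1 (0.067), to Gadd45a Zmynd15 (0.175), to Sesn1 Insm1 (0.133), to Zmat3 Slc35b3 (0.067), to Phlda3 Mideas (0.179), to Btg2 Bmp1 (0.075) and to Plk2 Fbxl18 (0.114).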

How the data were processed

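RNA-seq was analysed from INS-1E cells of 4 groups with 3 libraries each. The authors prepared TruSeq libraries, trimmed the reads, aligned them to mRatBN7.2 and assigned them to genes by featureCounts. Values in the deposited table are raw counts per gene symbol, not normalized, and the strand setting is not given in the sources used here. All 12 columns were matched to the labels by library name.

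A gene was tested if its CPM exceeded 1 in 2 or more libraries (14324 of 34034), and TMM factors were computed. One fit of edgeR 4.0.16's quasi-likelihood model (R 4.3.3, 8 residual degrees of freedom) over all 12 libraries gave 6 pairwise comparisons and the interaction, with Benjamini-Hochberg adjustment over all genes tested. Thresholds followed the study (adjusted p under 0.01, absolute log2 fold change above 0.6 or 1). Standard errors were derived from the fold change and the F statistic. Levels are TMM-normalized CPM, with no length correction, and are compared within a gene only. Between libraries of one group, chi-square per degree of freedom was 7.09 to 27.2, so no pair agreed within sampling noise. Reads carry no molecular identifiers, so depth bounds counting error only.

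The 9 genes, the lists and the alternatives (size factors, DESeq2 1.42.0, exactTest, filters, replicate block, leaving out libraries) were chosen with earlier results of these data known. The genes named are the 9, Mdm4, all tested relatives of the 9, up to 4 genes of each other list that passed, and the genes nearest in profile. Others are named, after their values were seen, to complete counts, and 1 gene of that rule is not reported here.

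Same-numbered libraries deviated together in all 9 pairs among the 3 treated groups (correlations 0.116 to 0.52). With untreated libraries they did so in 4 of 9 pairs (-0.188 to 0.181), so the numbers were taken to pair the treated groups only. The main fit held no pairing. The replicate block covered all 12 libraries, untreated ones included, so it did not model pairing of the treated groups alone. It changed 0 calls of the 9 genes. Scripts were tested on simulated counts. Promoters and overlapping genes are from RefSeq tables of GRCr8, not the build used for counting.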

Additional observations from a re-analysis of the deposited data

Results flagged for a closer look

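The response to CYT differed between preconditioned and unconditioned cells past both thresholds for 2 of the 9 p53 targets, by the interaction term of edgeR's quasi-likelihood fit, which 10.7% of all genes passed, 5.2% downward. The interaction was -1.65 on the log2 scale for Gadd45a and -1.60 for Phlda3. That of Cdkn1a (-0.86, adjusted p = 0.00067) reached the p threshold and was under the fold minimum. Gadd45a rose by 2.59 with CYT in unconditioned cells and differed by 0.93 with CYT in preconditioned cells. For Phlda3 the values were 2.03 and 0.43, and for Cdkn1a 1.06 and 0.20. Over 18 alternative analyses the interaction ran from -1.77 to -1.60 for Gadd45a, from -1.80 to -1.49 for Phlda3 and from -0.97 to -0.75 for Cdkn1a. The summed β-cell markers also differed less between preconditioned groups, and their part in these values was not tested.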

How the results depend on the processing

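For the 9 genes, 1242 values were computed over alternatives to the 63 gene-by-comparison values. Of these 1181 kept their direction and their side of the thresholds, 15 lost a call, 23 gained one and 23 turned direction, none of the last among the 13 that passed. Calls that were lost are those of Gadd45a after IL-1βlow (13 of 20 alternatives), of Cdkn1a in CYT against untreated cells without CYT replicate 2, and of Gadd45a in IL-1βlow + CYT against CYT without IL-1βlow + CYT replicate 2. Outside the rule of an adjusted p under 0.05 with no fold minimum, only Sesn1 gained calls. In CYT against untreated cells it did so without untreated replicate 2, untreated replicate 3 or CYT replicate 1. In IL-1βlow + CYT against untreated cells it did so without untreated replicate 2 or IL-1βlow + CYT replicate 1.

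For IL-1βlow against untreated cells, where 62 genes passed, the count was 138 with DESeq2, 137 with exactTest, 229 with no filter on low counts, 141 with the replicate block, 193 at an adjusted p under 0.05 with no fold minimum, and 16 to 87 with 1 library left out. Of the 9 genes, 0 passed with at least 10 counts in every library or with the 2 groups alone, 2 at the looser threshold and 0 to 1 with 1 library left out. That looser threshold passed 8926 genes and 6 of the 9 for CYT against untreated cells, 3124 and 3 for IL-1βlow + CYT against untreated, 7267 and 6 for IL-1βlow + CYT against CYT, 1855 and 3 for IL-1βlow + CYT against IL-1βlow, 8363 and 7 for CYT against IL-1βlow, and 5337 and 4 for the interaction. With 1 library left out, 1 to 2 of the 9 passed for IL-1βlow + CYT against untreated cells. The cause of these shifts was not tested, beyond fewer libraries or a looser rule.

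The values that turned direction were all small and did not pass. With 1 library left out, log2 fold changes ran from -0.08 to 0.11 for Mdm2 (IL-1βlow + CYT against IL-1βlow), from -0.26 to 0.12 for Ccng1, -0.07 to 0.21 for Sesn1, -0.10 to 0.15 for Plk2, -0.55 to 0.11 for Mdm4, -0.32 to 0.17 for Ccng2, -0.24 to 0.14 for Zmat4 and -0.02 to 0.29 for Btg1 (IL-1βlow + CYT against CYT), from -0.06 to 0.03 for Zmat3 and -0.18 to 0.13 for Phlda3 (IL-1βlow against untreated), from -0.13 to 0.07 for Plk2 (IL-1βlow + CYT against IL-1βlow) and -0.19 to 0.07 for Plk2 (CYT against IL-1βlow), and from -0.39 to 0 for Mdm4, -0.14 to 0.38 for Zmat4 and -0.16 to 0.14 for Btg1 (CYT against untreated). Zmat3 after IL-1βlow was 0.01 with RLE size factors, with DESeq2 and with no filter, and Btg1 with CYT was 0.01 with RLE size factors, DESeq2 or the 2 groups alone and 0.05 with no filter. The replicate block changed 0 calls of the 9 genes. With it, 3246 genes passed for CYT against untreated cells, 949 for IL-1βlow + CYT against untreated, 1870 for IL-1βlow + CYT against CYT and 1767 for the interaction. Of the 12 libraries, 9 correlated best with a library of their own number.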
